A study of Mus musculus with 8 samples.

Results

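The DpnII fragments described here lie in the body of *Ikzf1* and in the gap between that gene and its neighbour *Fignl1*, on chromosome 11 of mm9. They were chosen by position: the midpoint had to lie between 11598520, which is 15 kb beyond the 4C bait at the *Ikzf1* promoter, and 11687433, the last base before *Fignl1*. This gave 193 of the 295444 fragments of chromosome 11 that were listed for all 6 4C libraries. In GENCODE, *Ikzf1* runs on the plus strand at chr11:11585006-11672929, so the bait at 11583520 lies 1486 bp before its first base, and the final 14.5 kb of the window lie past the gene. The first fragment inside the window has its midpoint at 11598571, and the last one before it at 11597488. At the far end, the fragments at 11687402 and 11687788 lie on either side of the limit.

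*Ikzf1* encodes Ikaros, a zinc finger transcription factor needed for the development of lymphocytes and known as a tumour suppressor in T cells. In 4C, crosslinked chromatin is cut and ligated, and the fragments joined to 1 bait fragment are amplified and sequenced, so that reads on a fragment record how often it was ligated to the bait. Ligation to the bait generally falls with distance along the chromosome, and enhancers or other sites that meet a promoter can stand above that decline.

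The study compared contacts of the *Ikzf1* promoter between cell types, between genotypes and with stimulation, in 1 library per condition. DN3 cells are T cell precursors, sorted from thymuses of C57/Bl6 mice 4 to 5 weeks old; the labels describe them as low for CD44 and positive for CD25, without CD4 and CD8, whereas the Results of the paper call them CD44 positive as well. ES cells were of the J1 line, grown on feeder cells and then without them, and a lower SDS concentration was used on these nuclei than on all others. P5424 is a T cell precursor line, used either wt or as ΔIkE120, a clone in which the enhancer IkE120 upstream of the gene was deleted on both alleles with CRISPR. P5424 cells of each genotype were left unstimulated or were treated for 6 h with 20 µg/ml PMA and 0.5 µg/ml ionomycin. The clone and the genotype cannot be told apart, nor can the cell type and the permeabilization for ES cells. H3K27ac peaks came from 1 wt and 1 ΔIkE120 P5424 library, and the sources used here do not give whether these cells were stimulated.

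The libraries held 1788106 reads on chromosome 11 for DN3, 3448437 for ES, 2025891 and 1756688 for unstimulated and stimulated wt P5424 cells, and 3943018 and 2721320 for the ΔIkE120 cells of these states. Beyond 15 kb from the bait, they held 1525273, 3095991, 1742231, 1526128, 3342473 and 2178345 reads in the same order. All shares below are percentages of the reads beyond 15 kb. Since there were no replicates, no difference between conditions was tested. Intervals are exact Clopper-Pearson 95% intervals, and they cover the counting error of reads only, which is what counting error means below. PCR reads without molecular identifiers are not independent molecules, so these intervals are too narrow for the counting error of ligation events. A count of 0 allows up to 3 reads, which is between 0.898 and 1.97 RPM (reads per 1000000 reads beyond 15 kb) in these libraries.

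Reads were found along the whole gene body in every library. Reads covered 191 of the 193 fragments in DN3, 186 in ES, 188 and 180 in wt P5424 cells without and with stimulation, and 188 and 185 in ΔIkE120 cells likewise. In all, 176 fragments had reads in all 6 libraries, 16 in some of them, and 1 in none. The fragment without reads, at chr11:11662780-11663076 in an intron, is 293 bp long, measured from site to site; positions printed here include the DpnII sites at both ends. Its left end, taken as 30 bases, occurs 472 times in the genome, and its right end occurs once. Within 1 Mb of the bait, 14.6% of the 4950 fragments had reads in all libraries and 33.8% in none. Upstream of the bait, at the same distances as the gene body, 53.6% of 274 fragments had reads in all libraries and 34.3% in none. Among fragments with at least 1 end that occurs once in the genome, 91.2% had reads in all libraries in the gene body. The share of such fragments was 78.3% upstream and 17.5% within 1 Mb.

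The gene body held 256475 reads in DN3, or 16.82% (16.76 to 16.87). In ES cells it held 296895 reads, or 9.59% (9.56 to 9.62). The wt unstimulated library had 206645 reads there, or 11.86% (11.81 to 11.91), and the wt stimulated library 172349, or 11.29% (11.24 to 11.34). The order of the libraries had DN3 at the top and ES at the bottom, with the P5424 libraries between them. In ΔIkE120 cells the share was 14.50% (14.46 to 14.54) without stimulation, from 484589 reads, and 12.14% (12.09 to 12.18) with it, from 264385 reads. No intervals of neighbours in this order overlapped, but the spread between cell preparations is unknown.

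Reads were unevenly spread over the fragments. The median fragment had 650 reads in DN3, 732 in ES, 278 in unstimulated wt and 273 in stimulated wt cells, and 1144 and 748 in the ΔIkE120 cells of these states. The 10 fragments with the most reads took 26.3%, 28.0%, 38.7%, 33.2%, 24.9% and 24.5% of the gene body's reads in the same order. The wt unstimulated library was thus the most concentrated of the 6. Over the 193 fragments, the Spearman correlation of reads between libraries was between 0.57, for ES and wt stimulated, and 0.81, for DN3 and ES, with a median of 0.69 over 15 pairs. The libraries share the fragments' length, sequence and distance from the bait, so this describes the profiles and is no measure of reproducibility.

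Fragment length and the second restriction enzyme also moved with the reads. The fragments were between 6 and 1875 bp long, with a median of 374 bp. Of the 193, 91 hold a site of Csp6I, the second enzyme of the protocol (GTAC), and 102 do not. The median fragment with such a site had 1654 reads in DN3, 1840 in ES, 597 and 776 in unstimulated and stimulated wt cells, and 2874 and 1431 in their ΔIkE120 counterparts. Without a site, the medians were 230.5, 284.5, 179, 168.5, 687 and 439. Medians were higher with a site in all 6 libraries, but fragments with a site were also longer and made up 70.5% of the length. Relative to the whole gene body, their reads per length were 1.07 fold in DN3 and 1.06 fold in ES cells. They were 1.07 and 1.02 fold in unstimulated and stimulated wt cells, and 0.98 and 0.99 fold in their ΔIkE120 counterparts. Fragments without a site held between 24.2% and 30.8% of the reads, and 29.5% of the length. The Spearman correlation of reads with length over the 193 fragments lay between 0.26 and 0.38, and that with distance between -0.41 and -0.21.

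Next, the gene body was compared with the upstream side at the same distances, chr11:11479607-11568520. That window holds *4930512M02Rik* and most of the long noncoding RNA gene *Gm11999*, both on the minus strand, and the enhancer IkE25. It has 274 fragments, with a shorter median length of 197.5 bp. Upstream, the libraries held 12.2% in DN3, 7.91% in ES, 11.8% and 8.44% in wt P5424 cells without and with stimulation, and 12.5% and 10.2% in ΔIkE120 cells likewise. The log2 ratio of the gene body to the upstream side was 0.46 in DN3, 0.28 in ES, 0.01 in unstimulated wt and 0.42 in stimulated wt cells, and 0.22 and 0.24 in the ΔIkE120 cells of these states. The gene body therefore held more reads than the upstream side in 5 libraries, by up to 1.38 fold, and about as many in wt unstimulated cells.

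The sides differ in how many fragments could be mapped. Upstream, 94 of 274 fragments had no reads in any library, and 83 of these have no end of 30 bases that occurs once in the genome. In the gene body, every fragment has at least 1 such end and 189 have both. Where the mean reads per fragment were compared in place of the totals, the log2 ratio was 0.97 in DN3 and 0.51 in wt unstimulated cells. Among fragments with at least 1 unique end, a comparison chosen after the data had been seen, it was 0.42 in DN3 and -0.05 in wt unstimulated cells.

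In steps of 10 kb, the reads did not simply decline along the gene. The step from 15 to 25 kb held 2.65% in DN3, 2.16% in ES, 2.11% and 2.47% in unstimulated and stimulated wt cells, and 2.39% and 2.59% in their ΔIkE120 counterparts. From 25 to 35 kb the shares were 1.52%, 0.795%, 1.21%, 1.25%, 1.45% and 1.30% in the same order. From 35 to 45 kb they were 3.57%, 2.03%, 2.12%, 2.13%, 3.05% and 2.73%. The step from 35 to 45 kb, chr11:11618520-11628520, thus held more reads than the nearer one from 25 to 35 kb in every library, and it was the most-read step in DN3 and both ΔIkE120 libraries. In wt unstimulated cells it did not differ from the step from 15 to 25 kb beyond counting error. In ES and wt stimulated cells the step from 15 to 25 kb was higher. The counting interval of a step reached at most 2.76% of its value to either side in the gene body, and 6.35% upstream.

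Farther along, from 45 to 85 kb, shares were lower than from 15 to 25 and from 35 to 45 kb in each library, and no step there exceeded 1.72%. The lowest was the step from 75 to 85 kb in wt unstimulated cells, at 0.297%, against 1.29% in DN3 and 0.784% in wt stimulated cells. From 85 to 95 kb, where the gene ends, the shares were 2.45% in DN3, 1.45% in ES, 1.69% and 0.458% in wt P5424 cells without and with stimulation, and 1.65% and 0.815% in ΔIkE120 cells likewise. This step stood above the one before it in the 4 libraries of unstimulated cells and below it in both stimulated ones. In the last step, from 95 kb to *Fignl1*, shares lay between 0.611% in ES and 1.05% in DN3.

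Against the upstream step at the same distance, the gene body was higher in all 6 libraries from 15 to 25, 45 to 55, 65 to 75 and 75 to 85 kb. It was lower in all 6 from 25 to 35 kb and beyond 95 kb. From 35 to 45 kb it was higher in 5, with a log2 ratio of -0.31 in wt unstimulated cells. From 55 to 65 kb it was higher in 2, the stimulated libraries, and the lowest log2 ratio was -0.50 in wt unstimulated cells. From 25 to 35 kb, where IkE25 lies on the upstream side and IkE+15 on the gene side, the log2 ratio of gene body to upstream side lay between -1.47 in ES and -0.51 in wt stimulated cells. From 75 to 85 kb it lay between 1.79 in ES and 2.95 in DN3, and the upstream step had reads on at most 10 of its 33 fragments. The upstream steps from 45 and 65 kb were sparse too, with reads on at most 19 of 43 and 8 of 41 fragments. From 85 to 95 kb the gene body was higher in 4 libraries and lower in wt stimulated and ΔIkE120 stimulated cells, with log2 ratios of -0.82 and -0.54.

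The DHS IkE+15 is an enhancer of weak activity in a reporter assay, in an intron at chr11:11611793-11612034, 28.4 kb from the bait. A DpnII site at 11612007 cuts it, so its bases fall on a pair of fragments. The sequence of its plus strand in mm9 is shown because the DpnII site, in capitals, decides which fragment reports it.
IkE+15: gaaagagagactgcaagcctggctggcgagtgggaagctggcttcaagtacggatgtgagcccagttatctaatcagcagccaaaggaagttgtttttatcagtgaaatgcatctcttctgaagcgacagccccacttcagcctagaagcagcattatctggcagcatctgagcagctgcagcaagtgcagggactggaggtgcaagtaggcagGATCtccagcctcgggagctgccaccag
Of its 242 bases, 53.7% are G or C.

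The left of these fragments, chr11:11611192-11612010, had 2639 reads in DN3, 1492 in ES, 468 in unstimulated wt and 2171 in stimulated wt cells, and 8691 and 3757 in the ΔIkE120 cells of these states. The right one, chr11:11612007-11612432, had 2898, 4032, 2159, 1935, 4297 and 3520 reads in the same order. Reads on the left fragment were lowest in wt unstimulated cells and highest in ΔIkE120 unstimulated cells, whereas the right one varied less. Within 5 kb of the centre of IkE+15, 20 fragments together held 1.42% of the reads in DN3, 0.849% in ES, 1.16% and 1.22% in unstimulated and stimulated wt cells, and 1.43% and 1.25% in their ΔIkE120 counterparts. The mirrored window upstream held more in each library, from 1.89% in wt stimulated to 3.54% in DN3 cells. Within 10 kb this did not hold for wt stimulated cells, with 3.58% on the gene side and 2.96% upstream. The change of the IkE+15 window with stimulation had no stable direction, since its log2 ratio was 0.07 in wt cells but -0.06 with counts capped at the 99th percentile of covered fragments, and -0.20 in ΔIkE120 cells but 0.06 within 10 kb.

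Near 42.6 kb, 3 further DHSs lie side by side in an intron, at chr11:11625705-11625906, chr11:11625985-11626168 and chr11:11626256-11626493. They were inactive in the reporter assay. Within 5 kb of their common centre, 22 fragments held 3.00% of the reads in DN3, 1.66% in ES, 1.79% and 1.73% in wt P5424 cells without and with stimulation, and 2.50% and 2.18% in ΔIkE120 cells likewise. In each library this was above the IkE+15 window, but within 10 kb, where the windows overlap, it was below it in ES and both stimulated libraries. In wt cells, the fragment at 11623695 held 13140 of the 31144 reads within 5 kb unstimulated and 10329 of 26380 stimulated. Without that fragment, the window of the DHSs was below the IkE+15 window, which held 20246 and 18663 reads. With counts capped, it was above the IkE+15 window in each library. The window of the DHSs was also above the mirrored upstream window in 5 libraries, but in wt unstimulated cells the mirrored window held 2.20%. With counts capped, the window of the DHSs was also below the mirrored one in wt stimulated cells, at 1.22% against 1.45%. Within 10 kb and without the cap, it was below the mirrored one in ES cells too, at 2.39% against 2.58%.

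Reads on the fragments at and next to these DHSs were uneven. The fragment chr11:11625681-11626030 holds the first DHS and the start of the second. It had 203 reads in DN3, 156 in ES, 82 in unstimulated wt and 226 in stimulated wt cells, and 690 and 1086 in the ΔIkE120 cells of these states. Its neighbour chr11:11626027-11626438, which holds parts of the other DHSs, had 5109, 3779, 4737, 4681, 17464 and 3401 reads in the same order. The fragment on the other side, chr11:11625297-11625684, ends before the first DHS and had 12800, 10118, 817, 2336, 13394 and 6297 reads. In each library, the first DHS thus lay on a fragment with fewer reads than either neighbour, and the libraries differed in which of these neighbours had more. The end of the third DHS lies on chr11:11626435-11627644, which had 1242, 2410, 1469, 234, 2007 and 656 reads in the same order.

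The most-read fragments were partly shared between the libraries. The fragment chr11:11623489-11623906, 414 bp in an intron and 40.2 kb from the bait, was among the top 3 of the gene body in 5 libraries. It had 8906 reads in DN3, 13074 in ES, 13140 and 10329 in unstimulated and stimulated wt cells, and 12057 and 10786 in their ΔIkE120 counterparts. The fragment nearest to the bait, chr11:11597641-11599506, was among the top 3 in DN3, ES and both ΔIkE120 libraries, with 9576, 8373, 14140 and 7826 reads. It had 3821 reads in wt unstimulated and 1614 in wt stimulated cells. In ΔIkE120 unstimulated cells the top fragment was the one in the DHS group with 17464 reads. In wt unstimulated cells it was chr11:11677054-11678043, in the gap past the gene, with 15196 reads, or 7.35% of the gene body's reads; the other libraries had between 1003 reads there, in wt stimulated, and 5963, in ΔIkE120 unstimulated cells.

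The ends of the shared fragments and of the fragments at IkE+15 are shown as the 30 bases that a read would start with, from the DpnII site in capitals inward. Left ends are on the plus strand and right ends on the minus strand of mm9, and each occurs once in the genome.
chr11:11597641-11597670: GATCctgacatgcacctgtgttaccacagt
chr11:11599477-11599506: GATCacagaacaagccaggagagggctcaa
chr11:11611192-11611221: GATCttggtttttattttgtttggttgtct
chr11:11611981-11612010: GATCctgcctacttgcacctccagtccctg
chr11:11612007-11612036: GATCtccagcctcgggagctgccaccagca
chr11:11612403-11612432: GATCtttgtgattcctactggttgacagag
chr11:11623489-11623518: GATCagagatgcccccataattgggctgtt
chr11:11623877-11623906: GATCttactgagagactggacatctactaa

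By annotation, 21 fragments touch an exon, 135 lie in introns and 37 in the gap before *Fignl1*. Introns make up 70.3% of the length and held 75.8% of the gene body's reads in DN3, 73.9% in ES, 77.5% and 80.6% in wt P5424 cells without and with stimulation, and 78.3% and 83.2% in ΔIkE120 cells likewise. Exon fragments make up 13.4% of the length and held 12.3%, 14.5%, 7.10%, 9.34%, 11.1% and 6.60%. The gap makes up 16.3% and held 11.9%, 11.6%, 15.4%, 10.1%, 10.6% and 10.2%. Reads per length were higher in introns than over the whole gene body in each library, and in exons they exceeded it only in ES cells.

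The last exon, chr11:11668884-11672929, is 4046 bp long, and 82.7% of it follows the coding sequence. Within 5 kb of its centre, the window held 2.40% of the reads in DN3, 1.40% in ES, 0.875% in unstimulated wt and 0.501% in stimulated wt cells, and 1.79% and 0.850% in the ΔIkE120 cells of these states. The share with stimulation was lower in both genotypes, by log2 ratios of -0.80 in wt and -1.07 in ΔIkE120 cells, or -0.64 and -0.49 within 10 kb. Within 10 kb, the fragment at 11677546 held 15196 of 36492 reads in unstimulated and 1003 of 20533 in stimulated wt cells. Without that fragment, the wt share within 10 kb was not lower with stimulation. With counts capped, the wt shares within 10 kb were 1.64% unstimulated and 1.38% stimulated. The 11 fragments that touch the exon, a set chosen after the data had been seen, held 1.51% (1.49 to 1.53) in DN3 and 0.945% (0.934 to 0.956) in ES cells. In wt cells they held 0.489% (0.478 to 0.499) unstimulated and 0.176% (0.169 to 0.183) stimulated, a log2 ratio of -1.48. In ΔIkE120 cells they held 1.05% (1.04 to 1.06) unstimulated and 0.239% (0.232 to 0.245) stimulated, a log2 ratio of -2.13. The wt value leaned on the fragment at 11668857, and without it the log2 ratio was -0.76; in ΔIkE120 cells it was -2.30 without the fragment at 11669462.

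Several single fragments of the last exon were also lower in stimulated cells. Of its 11 fragments, 9 had enough reads to be compared in both genotypes. By RPM after adding 10, 5 were at least 2 fold lower with stimulation in both, against 9.89% of 880 within 1 Mb. The fragment chr11:11669486-11669939 had 4556 reads in DN3, 7829 in ES, 409 and 8 in unstimulated and stimulated wt cells, and 7073 and 179 in their ΔIkE120 counterparts. The fragment chr11:11670883-11671162 had 3594, 2957, 946, 83, 1882 and 121 reads in the same order. At the exon's end, chr11:11672734-11672978 had 4267, 3647, 225, 1, 5300 and 253 reads. In all of these, the unstimulated P5424 libraries had more reads than the stimulated ones of the same genotype. By RPM after adding 10, the fragment chr11:11670283-11670886 was not lower with stimulation, at log2 ratios of 1.01 in wt and 0.11 in ΔIkE120 cells. It had 546 and 979 reads in unstimulated and stimulated wt cells, and 1349 and 952 in ΔIkE120 cells. In wt cells, the fragments chr11:11670226-11670286, chr11:11669936-11670229 and chr11:11671405-11672737 were not lower either, at 2.60, 0.67 and 0.10. The last of these had only 1 and 2 reads there. In ΔIkE120 cells they were at -0.79, -0.0009 and -0.37.

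Fragments were then counted as past the fold when RPM, after adding 10, differed at least 2 fold. Fragments with at least 100 reads over a pair of libraries entered, and all such fragments from 15 kb to 1 Mb of the bait served as the background. Between DN3 and ES cells, the whole gene body had a log2 ratio of 0.81. Of 178 gene body fragments, 66 were higher in DN3, against 19.4% of 1844 within 1 Mb, and 16 were lower, against 56% of them. The median log2 ratio was 0.67 in the gene body, the same as upstream, and -1.80 over all within 1 Mb. The ES library covered more fragments of the chromosome than DN3, 10310 against 7629.

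Between wt unstimulated and DN3 cells, the gene body had a log2 ratio of -0.50. Of 178 fragments, 21 were higher in the cell line, against 29.2% within 1 Mb, and 76 were lower, against 37.9%. The median log2 ratio was -0.75 in the gene body, -0.56 upstream and -0.32 within 1 Mb. The lowest ratio was at chr11:11662199-11662783, in an intron, with 5344 reads in DN3 and 27 in wt unstimulated cells. This fragment had 0 reads in stimulated wt cells, and 2874 and 1394 in ΔIkE120 cells without and with stimulation.

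Between genotypes, the gene body's log2 ratio of ΔIkE120 to wt was 0.29 without stimulation and 0.10 with it. Scaled to the reads within 1 Mb, the latter was -0.07. Without stimulation, 73 of 181 fragments were higher in ΔIkE120 cells, against 47.9% within 1 Mb, and 19 were lower, against 22.5%. With stimulation, 63 of 178 were higher, against 46% within 1 Mb, and 24 were lower, against 23%. Fragments higher in ΔIkE120 cells thus outnumbered lower ones in both states, as they did over all fragments within 1 Mb, and the ΔIkE120 libraries were the deeper of each pair. Of 172 fragments that entered both comparisons, 28 were higher in ΔIkE120 cells in both, against 19.4% of 922 within 1 Mb, and 5 were lower in both, against 5.42%.

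With stimulation, the gene body's log2 ratio was -0.07 in wt and -0.26 in ΔIkE120 cells. In wt cells the direction depended on the scaling, as it was 0.17 relative to the reads within 1 Mb, which made up 61.3% of the reads in unstimulated and 51.8% in stimulated cells, and 0.12 with quantile normalization. In wt cells, 45 of 173 fragments were higher when stimulated, against 36.4% within 1 Mb, and 39 were lower, against 33.8%. With quantile normalization the split was 35 higher and 49 lower, and over the 1114 fragments within 1 Mb it was 343 higher and 400 lower. In ΔIkE120 cells, 30 of 183 were higher, against 33.3%, and 37 were lower, against 31.6%.

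Of 169 fragments compared in both genotypes, 10 were higher with stimulation in both, against 9.89% of 880 within 1 Mb, and 10 were lower in both, against 9.89%. Of the 10 lower ones, 6 lay from 85 to 95 kb, where 21 fragments were compared, and 5 of these touch the last exon. Of the 10 kb steps on both sides, 10 of 163, or 6.13%, were at least 2 fold lower with stimulation in both genotypes. Within 250 kb of the bait there were 48 steps, and the one from 85 to 95 kb was the only one of them past the fold in both. Without the fragment at 11677546, which was far higher in wt unstimulated cells than elsewhere, the log2 ratio of this step was -1.06 in wt and -1.39 in ΔIkE120 cells, in place of -1.88 and -1.02.

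The fragments that were higher in both genotypes were scattered. The highest ratio in both was at chr11:11661712-11662029, in an intron, which had 108 reads in DN3, 1 in ES, 1 and 3777 in wt P5424 cells without and with stimulation, and 2 and 2592 in ΔIkE120 cells likewise. The fragment chr11:11611032-11611195, next to the left fragment of IkE+15, had 81, 253, 8, 925, 0 and 1750 reads in the same order. Both were thus read mainly in stimulated cells of both genotypes. The fragment chr11:11639880-11640256 had 62 reads in DN3 and 1659 in ES cells, 1224 and 2 in unstimulated and stimulated wt cells, and 27 and 1 in their ΔIkE120 counterparts.

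H3K27ac, a mark of active enhancers and promoters, was given as peaks in GRCm38. Coordinates were not converted between builds, so the peaks were not placed on the 4C fragments. Past the first 15 kb of *Ikzf1* in that build, 5 peaks were called in wt and 5 in ΔIkE120 P5424 cells, over 4112 and 4057 bases. The lists did not match fully. The wt peak at chr11:11736517-11736933, 51.8 kb from the gene start, overlapped no ΔIkE120 peak. The ΔIkE120 peak at chr11:11711830-11712376, 27.1 kb from the gene start, overlapped no wt peak. Their fold enrichments were 2.07 and 1.82. The peak with the highest fold enrichment in each list was at chr11:11724594-11725996 in wt, with 2.55 fold, and at chr11:11724757-11725953 in ΔIkE120 cells, with 2.92 fold. These peaks lie 40.3 and 40.4 kb from the annotated gene start. No peak within the gene was called farther than 57.2 kb from the start in either list, so none was called at the last exon.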

How the data were processed

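The 4C data were 6 libraries, 1 per condition, and H3K27ac ChIP-seq 1 library per genotype. For 4C the authors trimmed the bait sequence, aligned the rest to mm9 (Bowtie), and deposited raw read counts per DpnII fragment of chromosome 11, with no normalization. For ChIP-seq the authors deposited peak lists in GRCm38 with the fold enrichment of each peak; MACS2 2.1.1 is named in the submitters' processing notes. The same notes name Bowtie 1.0.0 and, as the only build, GRCm38, but all 4C positions matched midpoints of DpnII fragments of mm9. Coordinates were not converted.

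Fragments not listed for all libraries were dropped, and all of them lie within 15 kb of the bait. Shares used reads beyond 15 kb. Ratios of single fragments used RPM plus 10. The script was tested on simulated data. Fragment ends of 30 bases were searched in the whole mm9 genome on both strands. Genes were taken from GENCODE M1. Elements and exons were named by position, and fragments as the 3 most read per library, the 3 with the largest ratios per direction and pair, or the fragments at DHSs and exons; fragments of the last exon and those lower or higher in both genotypes were chosen after their values had been seen. The members and lists were chosen with earlier results of these data known. Alternatives were other denominators, counts capped at the 99th percentile, quantile normalization over the 6 libraries, other minimum counts and pseudocounts, and wider steps and windows. Python 3.11.15, numpy 2.4.6, pandas 2.3.3 and scipy 1.17.1 were used.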

Additional observations from a re-analysis of the deposited data

Results flagged for a closer look

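For some stretches of the gene body, the log2 ratio of stimulated to unstimulated shares had opposite signs in wt and ΔIkE120 cells. These differences were not tested, since each condition had 1 library. Given as the ratio in ΔIkE120 cells minus that in wt cells, the difference was -0.27 for the window of IkE+15, -0.21 for the step from 25 kb, -0.17 for the step from 35 kb, -0.42 for the step from 55 kb, -1.43 for the step from 75 kb and -0.94 for the step from 95 kb. The step from 75 kb had a log2 ratio of 1.40 in wt cells, where its share had been 0.297%, and was at -0.03 in ΔIkE120 cells. The counting intervals of both states overlapped for the step from 35 kb in wt cells and for the step from 75 kb in ΔIkE120 cells, so no direction stands there beyond counting error. The IkE+15 window had no stable direction over the alternatives in either genotype. Among single fragments compared in both genotypes, 6 of 169, or 3.55%, were past the fold with stimulation in opposite directions. This compares with 16.3% of 147 upstream and 17.4% of 880 within 1 Mb.

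In the same way, the log2 ratio of ΔIkE120 to wt cells changed sign between stimulated and unstimulated cells in 5 steps. Stimulated minus unstimulated, the difference was 0.34 for the step from 45 kb, -0.42 for that from 55 kb, -0.66 for that from 65 kb, 0.87 for that from 85 kb and -0.94 for that from 95 kb. These were not tested either, and where both contrasts name a step they use the same 4 libraries and give the same difference. Of single fragments compared in both states, 7 of 172, or 4.07%, were past the fold between genotypes in opposite directions. The share was 10.9% of 147 upstream and 17.1% of 922 within 1 Mb.

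The differences from 85 and 95 kb rest on 1 fragment each, by a comparison chosen after the data had been seen, in which each step lost its fragment with the most reads over the 4 P5424 libraries. For the step from 85 kb, without the fragment at 11677546, the log2 ratio of ΔIkE120 to wt cells was 0.85 unstimulated and 0.51 stimulated, so the difference became -0.33 and the signs no longer differed. For the step from 95 kb, without the fragment at 11684228, the difference was -0.03, with no change of sign in either contrast. In other steps the difference remained and only the signs came to agree: it was -0.70 from 55 kb and -1.15 from 75 kb, where they agreed for stimulation, and -0.72 from 65 kb, where they agreed for the deletion. The signs stayed opposite from 25 and 35 kb and in the IkE+15 window for stimulation, with differences of -0.18, -0.36 and -0.26, and from 45 and 55 kb for the deletion, with 0.60 and -0.70. From 15 kb, the log2 ratio of ΔIkE120 to wt cells gained opposite signs in this way, at 0.05 unstimulated and -0.09 stimulated.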

How the results depend on the processing

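Values are in the order DN3, ES, wt unstimulated, wt stimulated, ΔIkE120 unstimulated and ΔIkE120 stimulated. As counting intervals are narrow at this depth, most alternatives lay outside them, and 11 of 114 shares and ratios stayed inside. Of the counts past the fold, which had the wider limit of 1.5 times, 46 of 48 did. The gene body share was 15.0%, 8.82%, 10.4%, 10.1%, 12.3% and 10.3% of all chromosome 11 reads, 15.1%, 8.03%, 11.1%, 9.97%, 14.2% and 11.6% with counts capped at the 99th percentile, and 16.1%, 9.21%, 11.1%, 10.7%, 14.0% and 11.7% without its most-read fragment. DN3 stayed highest and ES lowest in each. The log2 ratio to the upstream side was 0.97, 0.78, 0.51, 0.93, 0.73 and 0.75 by mean reads per fragment, and 0.45, 0.28, 0.086, 0.27, 0.33 and 0.30 capped. When the number of fragments with reads was compared in place of the reads, it was 0.17, 0.15, 0.15, 0.22, 0.10 and 0.15. By mean reads per fragment with a unique end, it was 0.42, 0.22, -0.053, 0.38, 0.17 and 0.21, so the direction changed in wt unstimulated cells.

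The gene body's log2 ratios of DN3 to ES, wt unstimulated to DN3, ΔIkE120 to wt unstimulated, ΔIkE120 to wt stimulated, and stimulated to unstimulated in wt and in ΔIkE120 cells were 0.38, -0.60, 0.33, 0.078, 0.12 and -0.13 with quantile normalization and 0.91, -0.44, 0.36, 0.21, -0.15 and -0.30 capped. When the number of gene body fragments with reads was compared in place of the reads, they were 0.038, -0.023, 0, 0.040, -0.063 and -0.023. That number could differ little, since between 180 and 191 of the 193 fragments had reads. The log2 ratios of reads were 0.72, -0.48, 0.22, -0.072, 0.17 and -0.12 relative to reads within 1 Mb. Stimulation in wt cells and ΔIkE120 against wt in stimulated cells therefore have no stable direction over these scalings; the cause was not tested. Quantile normalization moved the median fragment ratio within 1 Mb by between -0.31 and 0.25.

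Of the counts past the fold, a minimum of 500 reads gave 10 in place of 21 fragments higher in wt unstimulated than DN3 cells and 21 in place of 39 lower in stimulated wt cells, with fewer fragments compared. The log2 ratio of reads per kb in the outermost to the innermost step was -1.17, -1.65, -1.59, -1.36, -1.19 and -1.79 in steps of 10 kb and -0.83, -1.11, -1.24, -0.95, -0.87 and -1.38 in steps of 20 kb. For the last exon, alternatives chosen after seeing the data gave -1.54 in wt and -2.07 in ΔIkE120 cells with quantile normalization, and -0.76 and -2.30 without the most-read fragment. The IkE+15 window changed direction with stimulation in wt cells when capped, at -0.055, and in ΔIkE120 cells within 10 kb, at 0.064. The labels number no replicates that pair the groups, so no paired analysis was made, nor an additive fit over the 4 P5424 libraries.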

Other observations

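In the gene body, 3 fragments had reads in 1 library each. The fragment chr11:11684621-11685143, in the gap before *Fignl1*, had 882 reads in DN3 cells, and chr11:11671159-11671289, in the last exon, had 261 there. The fragment chr11:11639803-11639883, in an intron, had 503 reads in ΔIkE120 unstimulated cells. All 3 were at 0 in the other 5 libraries, although their neighbours had reads in most of them. Whether such counts come from 1 or many ligation events cannot be told from reads without molecular identifiers.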
